A study of Mus musculus with 8 samples.

Results

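The start sites of 10 immediate early genes were examined for their chromatin contacts: Egr1, Egr2, Egr3, Ier2, Ier3, Ier5, Klf2, Klf4, Klf6 and Nr4a1. Their loops were found by position. A loop is a pair of bins of 5 kb whose contacts exceeded the caller's expectation at a q-value under 0.01, and it was assigned to a gene when 1 of its bins held the start of the gene's canonical transcript. The 10 genes are among 21757 protein-coding genes, 9 of them had a loop, and their 111 different loops were drawn from 214313 in all.

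Contacts were measured by HiChIP, in which crosslinked, MNase-digested chromatin is pulled down through H3K27ac, the acetylated histone found at promoters and enhancers in use, and DNA ends held close together are then ligated. The cells were HPC-7, a mouse haematopoietic progenitor line with very low endogenous CEBPA. One line carried the full-length isoform p42 and the other the shorter isoform p30 of the transcription factor CEBPA, each stably transduced and fused to an ERT2 fragment whose entry into the nucleus is controlled by 4-hydroxytamoxifen. Per the study's methods, cells with ERT2 fusions received 4-hydroxytamoxifen before an experiment, so that the isoform moves into the nucleus. Each line was then left without LPS (untreated, UT) or given it at 100 ng/mL for 2 h, LPS being a bacterial cell wall component that activates inflammatory signalling. This gave 4 groups, all of which carry a CEBPA transgene, since no list from cells without one was used here.

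Each group had 2 replicates, for 8 libraries, but was represented by 1 list of loops. No spread between replicates can be given, and every difference below is one between these lists and not between conditions. Intervals cover counting error only. The 4 comparisons share lists, as each list enters 2 of them. Untreated and after LPS, the p30 lists held 80489 and 94609 loops and the p42 lists 158233 and 78591, and the modelled contacts ranged from 14503330 to 18999991. Of 12 markers of haematopoietic stem and progenitor cells, 12 had a loop in every list, whereas 0 of 4 T cell, 0 of 3 neuronal and 0 of 3 epithelial markers had one, and of 3 B cell and 3 hepatocyte markers at most 2 and 1 did in a list. Where a gene's values are given as a pair for a line, the untreated list comes first and the LPS list second.

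Immediate early genes are switched on within minutes of a stimulus without new protein synthesis. Serum response factor, which binds the CArG box, and factors of the CREB and ATF family, which bind the CRE, are known to act at many of their promoters. EGR and KLF proteins are zinc finger transcription factors, NR4A1 is an orphan nuclear receptor, and the IER genes are named for their rapid induction.

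The stretches of 250 bases just upstream of the start sites were read from GRCm39, 5′ to 3′ on the strand of the gene. That of Ier2 is shown because it holds a match to a searched motif. Capitals mark a CRE (TGACGTCA), and the stretch lies at chr8:85389484-85389733 on the minus strand.
Ier2: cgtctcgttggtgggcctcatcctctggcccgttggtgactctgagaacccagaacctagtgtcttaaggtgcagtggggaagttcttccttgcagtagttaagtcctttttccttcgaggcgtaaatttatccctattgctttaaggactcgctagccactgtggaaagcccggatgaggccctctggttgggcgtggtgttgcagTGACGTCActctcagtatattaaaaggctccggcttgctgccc

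The CRE lay between positions -43 and -36 of Ier2, counted from the start site. Egr2 held a CArG box, between -65 and -56. Both strands were searched in the windows of 9 members. The CArG box occurred in 1 of 9 and in 1.40% of 21757 coding promoters, and the CRE in 1 of 9 and in 1.70%. None of the 9 windows held an AP-1 motif (TGANTCA, 6.18% of promoters), a C/EBP motif (TTGCNNAA, 9.34%), a CEBP:ATF composite (TGATGCAA, 0.887%) or an EGR motif (GCGTGGGCG, 0.547%).

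**Figure D1:**
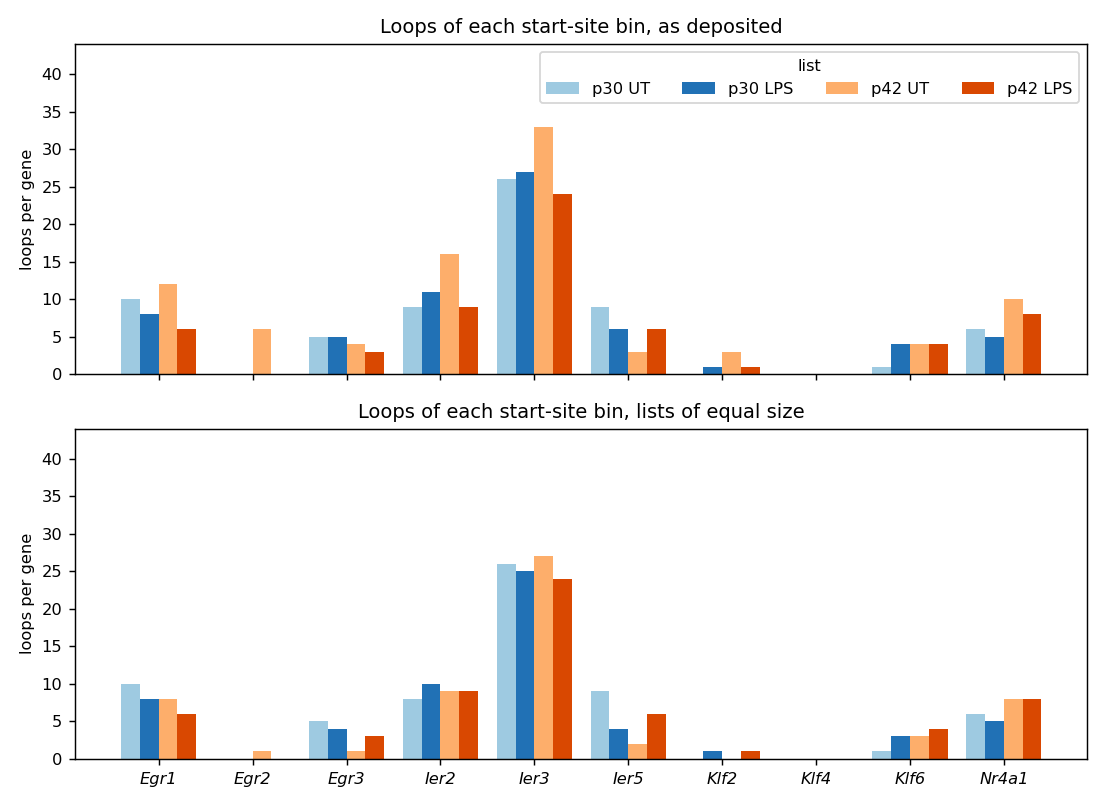
Loops per gene (vertical axis) for the 10 genes in each of 4 lists, as deposited (top) and with every list cut to 78591 loops, kept in order of q-value (bottom). Bars are single lists without replicates, and Ier3 held between 24 and 33 loops as deposited while Klf4 held 0.

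The number of loops differed widely between genes and was highest for Ier3 in all 4 lists. Together the 10 start-site bins held 66 and 67 loops with p30, and 91 and 61 with p42. With the lists cut to equal size, the sums were 65 and 60 with p30 and 59 and 61 with p42, and the higher count of p42 UT was no longer seen.

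In untreated cells, 7 of 9 genes had more loops with p42 and 2 had fewer, Egr3 and Ier5, beside 81.9% of all genes with more and 8.26% with fewer. The summed loops were 1.38 times those of p30, against 1.91 times for all coding genes. In lists of equal size, 5 of 8 genes had more and 3 fewer, beside 41.7% with more and 37.7% with fewer. After LPS, 1 of 8 genes had more loops with p42 and 4 had fewer, beside 23.6% of all genes with more and 58.7% with fewer. With lists of equal size 3 of 8 had more and 4 fewer, beside 33.7% with more and 46.8% with fewer.

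With LPS, 4 of 8 genes had more loops in p30 and 3 had fewer, beside 53.1% of all genes with more and 27.6% with fewer. In lists of equal size, 3 of 8 had more and 5 fewer, beside 42.2% with more and 36.8% with fewer. In p42, 1 of 9 genes, Ier5, had more loops after LPS and 7 had fewer, beside 4.51% with more and 87.3% with fewer. With lists of equal size 4 of 9 had more and 3 fewer, beside 31.8% with more and 46.5% with fewer.

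Among the EGR genes, whose products bind GC-rich sites, Egr1 (chromosome 18, start site 34992876) had 10 and 8 loops with p30 and 12 and 6 with p42. Of its 14 partner bins, 13 lay downstream, between 20 and 100 kb away. The partner at 30 kb, without a coding start site, had the most contacts, with 45 and 44 in the p30 lists and 50 and 27 in the p42 lists.

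Egr1 also reached coding start sites. The bin at 75 kb holds the start of Etf1, which encodes a translation release factor, and had 14 and 15 contacts with p30 and 16 and 14 with p42. The bin at 95 kb holds the start of Hspa9, a mitochondrial chaperone, and had 18, 13 and 31 contacts in p30 UT, p30 LPS and p42 UT, and was not listed in p42 LPS. A pair that is not listed has an unknown number of contacts. The bin at 35 kb was listed in both p30 lists, with 25 and 23 contacts, and in neither p42 list.

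Egr3 (chromosome 14, start site 70314350) had 5 and 5 loops with p30 and 4 and 3 with p42, and 8 of its 10 partner bins lay upstream, most of them in Pebp4. Its partner at 10 kb upstream was the one found in all 4 lists, with 79 and 50 contacts in the p30 lists and 53 and 39 in the p42 lists. The bin at 25 kb downstream with the start of Bin3, a gene of the BAR domain family, had 21 and 17 contacts in the p30 lists and was in neither p42 list. The bin at 55 kb upstream had 15 and 12 contacts in the p30 lists and was also in neither p42 list. Egr2 (chromosome 10, start site 67373692), a regulator of myelination and of lymphoid cells, had 6 loops in p42 UT and 0 in the other lists. They had 8 to 14 contacts each, 2 of 6 partners were peak bins, and 1 of the 6 remained in lists of equal size.

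**Figure D2:**
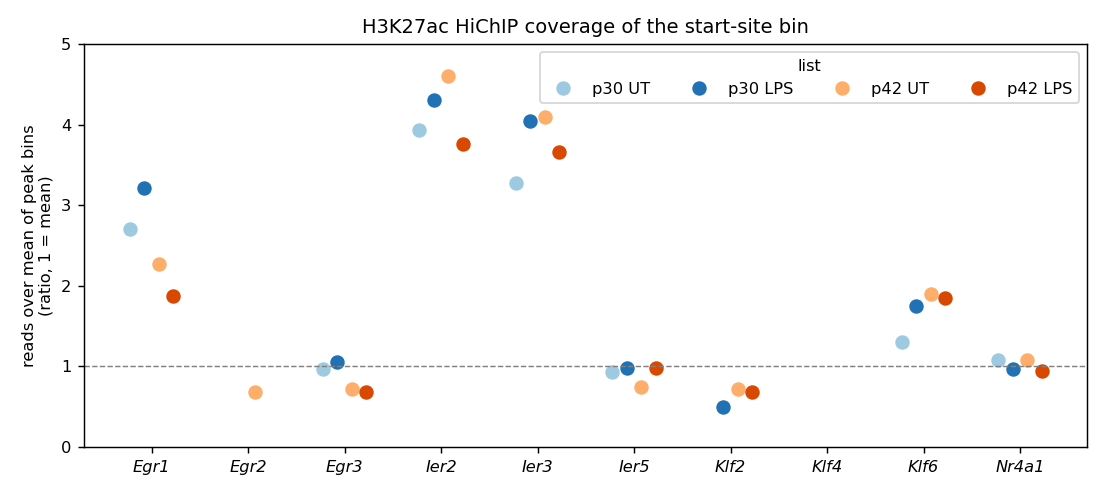
Reads in the start-site bin divided by the mean of peak bins of the same list (vertical axis, the dashed line is 1), for each gene and list. Each point is 1 list. Ier2 and Ier3 lie above 3 in all 4 lists, and genes without a listed bin have no point.

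Of the IER genes, Ier2 (chromosome 8, start site 85389483) had 9 and 11 loops with p30 and 16 and 9 with p42. Of its 17 partner bins, 13 lay upstream. They include the starts of Lyl1, a haematopoietic bHLH factor, at 40 kb, of Trmt1, a tRNA methyltransferase, at 30 kb, of Nacc1, a BTB domain protein, at 25 kb, and of Calr, a chaperone of the endoplasmic reticulum, at 185 kb. The Lyl1 bin had 51 and 54 contacts with p30 and 82 and 46 with p42. The Nacc1 bin had 39 and 51 with p30 and 78 and 54 with p42, and the Trmt1 bin 32 and 41, then 53 and 45. In contacts as counted, p42 UT was the highest list for each of these. Relative to the modelled contacts, this held for the Lyl1 and Nacc1 bins but not for the Trmt1 bin, where p42 LPS against p42 UT gave a log2 ratio of 0.03, within counting error. The bin 20 kb upstream of Ier2 was in both p42 lists, with 44 and 33 contacts, and in neither p30 list.

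Ier3 (chromosome 17, start site 36132568), a regulator of cell survival, had 26 and 27 loops with p30 and 33 and 24 with p42. Its bin also holds the start of Flot1, which encodes a membrane scaffold protein, so that the loops of both genes cannot be told apart. Of 35 partner bins, 20 were found in all 4 lists. A run of adjacent bins from 90 to 20 kb upstream was listed in all of them, none with a coding start site.

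The bin 80 kb upstream of Ier3 had the highest contacts over expected of any loop of the 10 genes. It had 63 and 96 contacts with p30, which was 22.1 and 35.4 times the expected count, and 97 and 57 with p42, which was 30.9 and 19.9 times. Downstream, the bin at 95 kb with the starts of Mrps18b and Ppp1r10 had 27 and 47 contacts with p30 and 69 and 28 with p42. Mrps18b encodes a mitochondrial ribosomal protein and Ppp1r10 a regulatory subunit of protein phosphatase 1. Both bins had fewer contacts in p30 UT and p42 LPS than in the other lists. The start of Ppp1r18, 45 kb downstream, had 24 and 33 contacts with p30 and 39 and 24 with p42. That of Tubb5 at 15 kb had 53, 67 and 46 in p30 UT, p42 UT and p42 LPS. That of Atat1 at 90 kb had 13, 13 and 28 in p30 UT, p30 LPS and p42 UT. That of Dhx16 at 60 kb had 16 and 24 in p30 UT and p42 UT. The bin 115 kb upstream of Ier3 was in both p42 lists, with 14 and 11 contacts, and in neither p30 list.

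A CEBP:ATF composite (capitals) in the bin 80 kb upstream of Ier3 is shown because that bin carried the strongest loop. It lies at chr17:36054661-36054728 on the plus strand.
Ier3 at 80 kb upstream: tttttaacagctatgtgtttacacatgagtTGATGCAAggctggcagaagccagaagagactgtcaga

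Ier5 (chromosome 1, start site 154975382), a regulator of the heat shock response, was the gene with fewer loops in p42 UT than in any other list. It had 9 and 6 loops with p30 and 3 and 6 with p42. The bin 45 kb downstream had 24 and 30 contacts with p30 and 32 and 25 with p42, and that at 50 kb had 25 and 25, then 23 and 22, without a coding start in either. The bin 45 kb upstream holds the start of Mr1, an antigen-presenting molecule, and had 15 and 11 contacts in the p30 lists and was in neither p42 list.

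**Figure D3:**
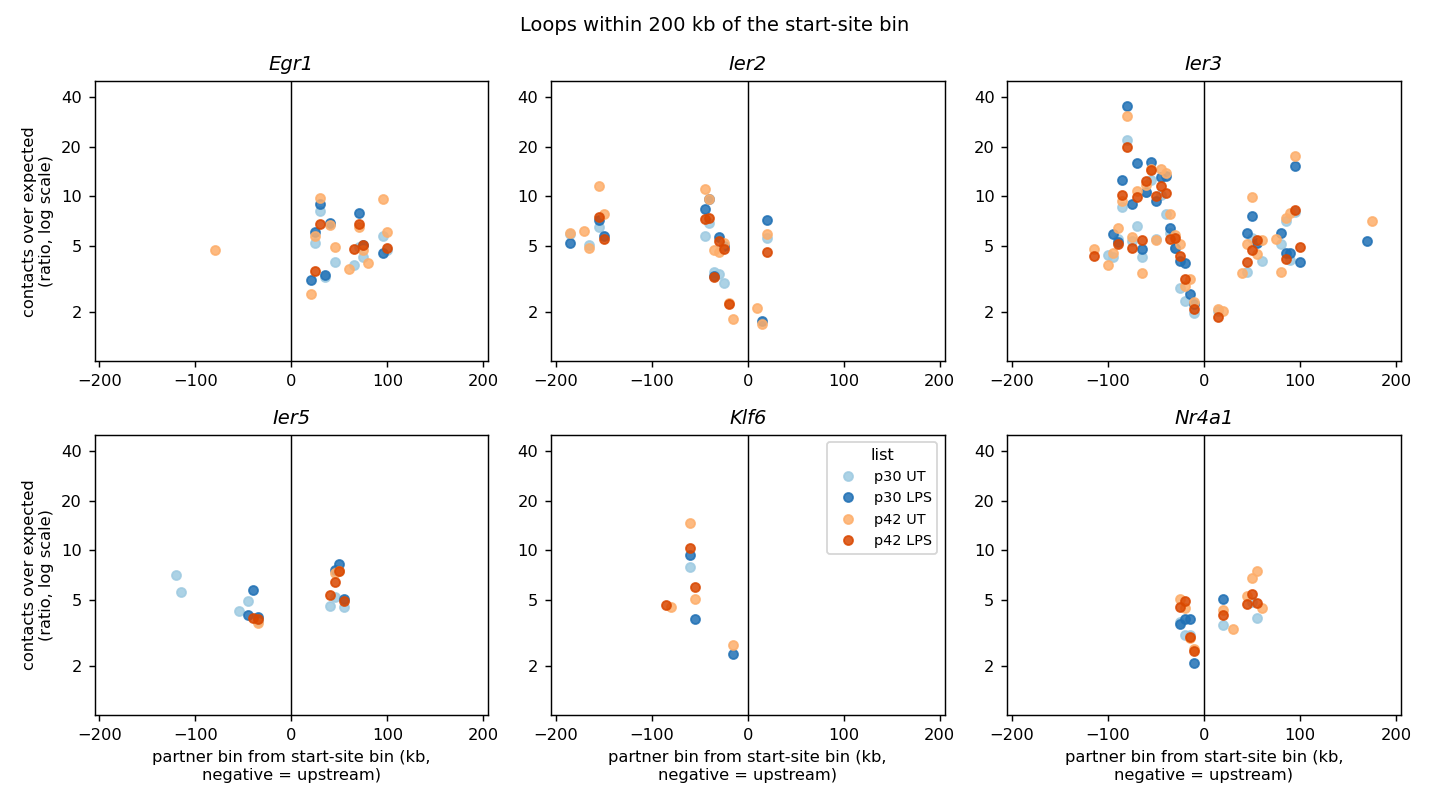
Partner bins within 200 kb of the start-site bin for 6 genes, by distance (horizontal axis, kb, negative is upstream) and contacts over expected (vertical axis, log scale), with each point a loop in 1 list. Egr1 loops lie mostly downstream, Klf6 loops upstream, and the Ier3 loop at 80 kb upstream reaches 35.4.

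Of the KLF genes, Klf6 (chromosome 13, start site 5911481), a widely expressed zinc finger factor, had 1 loop in p30 UT and 4 in each of the other lists, all upstream. The bin at 60 kb was found in all 4 lists, with 25 and 29 contacts in the p30 lists and 60 and 36 in the p42 lists. This was 7.88 and 9.41 times the expected count with p30 and 14.5 and 10.4 times with p42. The bin at 270 kb was in both LPS lists, with 10 contacts in p30 and 9 in p42, and in neither untreated list.

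The bin 60 kb upstream of Klf6 held 3 AP-1 motifs, 2 C/EBP motifs and no CEBP:ATF composite. The AP-1 motifs are shown because this loop differed most between p42 and p30 by fold among those that passed the test for the untreated lists, apart from 1 of Ier3. Capitals mark the motif, on the plus strand, at chr13:5852963-5853029, chr13:5853539-5853605 and chr13:5853750-5853816.
Klf6 site a: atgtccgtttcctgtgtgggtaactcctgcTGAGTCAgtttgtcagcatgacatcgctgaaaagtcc
Klf6 site b: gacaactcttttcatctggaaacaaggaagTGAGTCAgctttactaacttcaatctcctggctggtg
Klf6 site c: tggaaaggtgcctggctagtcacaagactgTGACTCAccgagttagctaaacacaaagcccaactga

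Klf2 (chromosome 8, start site 73072726), a factor of quiescence in endothelium and lymphocytes, had 0 and 1 loops with p30 and 3 and 1 with p42. Its bin at 20 kb upstream, in an exon of Eps15l1, had 15, 18 and 16 contacts in the 3 lists that held it. Klf4 (chromosome 4, start site 55532466), a factor of monocyte differentiation, had 0 loops in all 4 lists, and no loop of any kind lay wholly within 100 kb of it.

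Nr4a1 (chromosome 15, start site 101164660) had 6 and 5 loops with p30 and 10 and 8 with p42. Its bin at 20 kb downstream, with the start of Atg101, an autophagy gene, had 42 and 48 contacts with p30 and 54 and 37 with p42. The bin at 20 kb upstream had 26 and 26 with p30 and 45 and 33 with p42. The bin at 45 kb downstream was in both p42 lists, with 22 and 15 contacts, and in neither p30 list. Nr4a1 has coding start sites in 3 bins, whereas each other member has 1, and only the bin of the canonical start was counted here. With the bins of every coding start site, the 10 genes together held 73 and 75 loops with p30 and 107 and 72 with p42.

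Across the 111 loops, 40 were in all 4 lists, or 36.0%, beside 17.7% of the 66960 loops of all coding start sites and 14.5% of all 214313 loops. Of these 40, 20 were loops of Ier3, which held 35 of the 111, while Egr2, Klf2 and Klf4 had 0. In p42 UT alone there were 23, or 20.7%, beside 27.6% and 28.7%, and in p30 UT alone 4, or 3.60%, beside 5.78% and 6.98%. A further 3, or 2.70%, were found with p42 under both treatments but never with p30, beside 5.13% and 5.53%, and 4, or 3.60%, the reverse, beside 1.53% and 1.58%. Both LPS lists but neither untreated list held 3, or 2.70%, beside 1.18% and 1.33%. These were the bin 270 kb upstream of Klf6, the bin 100 kb downstream of Ier3 and the bin 40 kb upstream of Ier5. The partner bin held a coding start in 22.7% and 17.9% of the members' loops with p30 and in 19.8% and 13.1% with p42, against 26.7% and 26.4%, and 24.7% and 25.4%, of all start-site loops. The members' median distance was 50 and 45 kb with p30 and 50 and 50 kb with p42, against 50 and 45 kb and 50 and 45 kb for all start-site loops. Contacts over expected had medians of 4.90 and 5.32 with p30 and 5.21 and 5.08 with p42, against 4.65 and 4.73, and 4.61 and 4.68.

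Of the peak bins among the partners, 87.2% of 94 held a C/EBP motif, against 85.8% of 64985 listed peak bins. An AP-1 motif was in 76.6% against 77.4%, a CEBP:ATF composite in 18.1% against 11.6% and a CArG box in 21.3% against 22.3%. A CRE was in 4 of the 94, or 4.26%, against 4.02%. An EGR motif was in 3 of the 94, or 3.19%, against 0.985%. A match is a description of the letters and not of a bound factor.

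Coverage of the start-site bin, the reads in it over the mean of peak bins in the same list, was highest for Ier2 and Ier3. Ier2 was at 3.94 and 4.31 in the p30 lists and at 4.60 and 3.76 in the p42 lists, and Ier3 at 3.27 and 4.05, then 4.10 and 3.66. Egr1 was at 2.71 and 3.22 in the p30 lists and at 2.27 and 1.87 in the p42 lists, and Klf6 at 1.30 and 1.75, then 1.90 and 1.84. Egr3, at 0.962 and 1.05 in p30 and 0.722 and 0.679 in p42, was lower with p42 under both treatments by this scaling, as was Egr1. The other listed bins ranged from 0.499 for Klf2 in p30 LPS to 1.08 for Nr4a1. In untreated cells, the order for Egr1 and Egr3 depended on the scaling. Egr1 had 6513 reads in p30 UT and 6600 in p42 UT, and Egr3 had 2315 and 2103. The mean of bins without a peak was 609 in p30 UT and 456 in p42 UT. Relative to that mean, both genes were higher in p42 UT.

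After LPS, 2 of 8 members were lower by 1.5-fold or more with p42 than with p30, Egr1 (log2 difference -0.78, counting interval -0.84 to -0.73) and Egr3 (-0.63, -0.73 to -0.53), and 0 were higher, beside 3.71% of start-site bins lower and 1.79% higher. Scaled to the median of all start-site bins, 1 of 8 was past 1.5-fold, beside 4.3% of all such bins. In untreated cells, 0 of 7 passed in either direction, beside 3.72% higher and 1.43% lower. Klf6, the highest, was at 0.55. For LPS against untreated, 0 of 7 passed in p30, beside 1.92% higher and 0.359% lower, and 0 of 8 in p42, beside 0.743% higher and 1.09% lower. Scaled to the mean of bins without a peak, 4 of 7 and 4 of 8 members were past 1.5-fold for p42 against p30, untreated and after LPS, and 6 of 7 and 7 of 8 for LPS against untreated in p30 and p42. Under that scaling, which shifts all bins of a list by 1 factor, 72.2%, 49.2%, 47% and 81.2% of all start-site bins were past it in the same order.

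**Figure D4:**
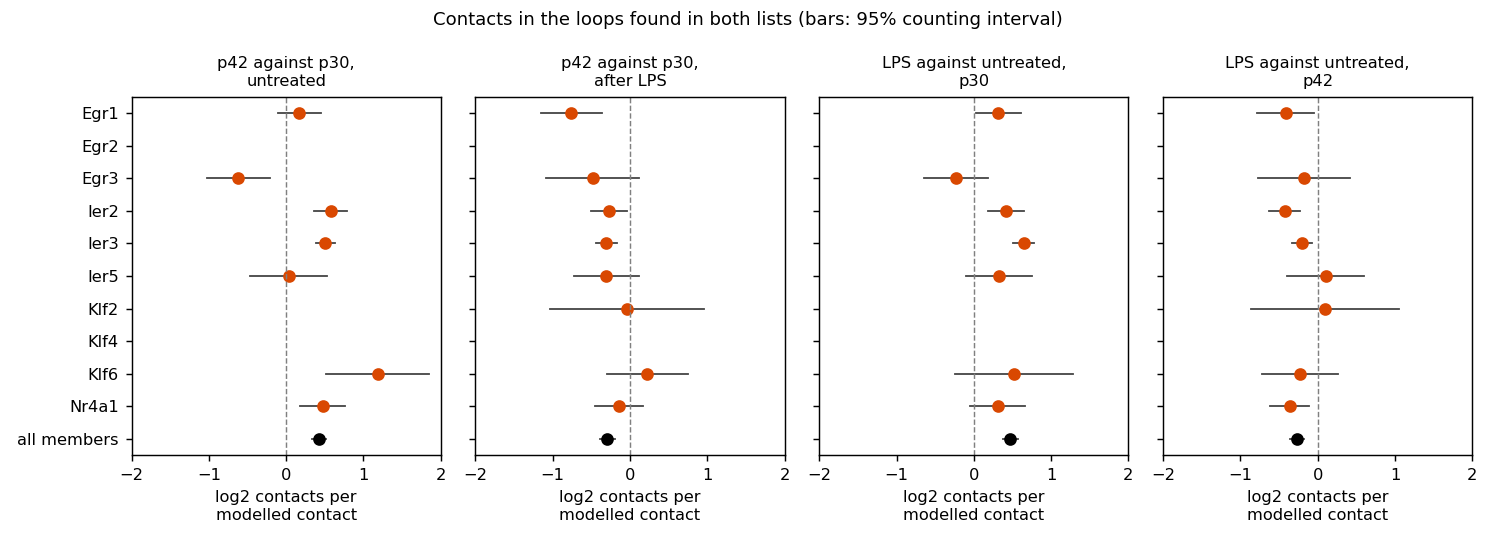
Log2 ratio of contacts per modelled contact in the loops found in both lists (horizontal axis) for each gene and for all members, in 4 comparisons. Points are sums over loops and bars are 95% counting intervals. All members lie at 0.42, -0.29, 0.47 and -0.27 from left to right.

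Loops found in both lists of a comparison were compared by their contacts, relative to the modelled contacts of the lists. For p42 against p30 in untreated cells, 55 loops held 2373 and 1675 contacts, a log2 ratio of 0.42 (0.33 to 0.51). Their median loop lay at 0.42, and the median of all 59069 loops at 0.20. For LPS against untreated in p30, the log2 ratio of the sums was 0.47 (0.37 to 0.57) over 51 loops, with a median loop at 0.37 for the members and 0.22 for all. After LPS, p42 against p30 gave -0.29 (-0.39 to -0.20) over 49 loops, with medians of -0.20 and -0.13. LPS against untreated in p42 gave -0.27 (-0.36 to -0.18) over 52 loops, with medians of -0.28 and -0.13. The sign was thus the same for the members and for all loops in each comparison.

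By an exact two-sided binomial test with Benjamini-Hochberg adjustment over all loops, 7 of 55 members' loops passed in untreated cells, all higher in p42, beside 5.09% of loops. The bin 95 kb downstream of Ier3 had 69 contacts against 27 (log2 ratio 1.27, exact binomial adjusted p = 0.00297). The bin 45 kb upstream of Ier2 had 74 against 32 (1.13, exact binomial adjusted p = 0.00598), and the bin 60 kb upstream of Klf6 60 against 25 (1.18, exact binomial adjusted p = 0.0146). The others were the Nacc1 bin of Ier2 and the bins of Ier3 at 40 and 25 kb upstream and at 50 kb downstream. After LPS, 1 of 49 passed, beside 1.59%, the Ier3 bin at 80 kb upstream, with 57 contacts in p42 and 96 in p30 (-0.88, exact binomial adjusted p = 0.0240).

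For LPS against untreated in p30, 3 of 51 passed, beside 2.20%, all upstream of Ier3. The bin at 70 kb had 50 contacts against 22 (1.49, exact binomial adjusted p = 0.00380), and the bins at 80 and 40 kb passed as well. In p42, 0 of 52 passed, beside 1.47%, with a smallest adjusted p of 0.0575 by the exact binomial test. The test compares these libraries. With the caller's expected counts as the null share, which take up the coverage of the bins, 0 of the members' loops passed in any comparison, with smallest exact binomial adjusted p-values of 0.0774, 0.275, 0.167 and 0.181, and 10, 5, 9 and 5 loops had an unadjusted p under 0.05. Of all loops tested with this null, 0.406%, 0.0412%, 0.0532% and 0.0652% passed. Coverage of the start-site bin in untreated cells was also higher with p42 for Ier2 (log2 difference 0.22), Ier3 (0.32) and Klf6 (0.55), none of them past 1.5-fold. It was lower with p42 for 4 of the 7 members listed in both untreated lists. Whether coverage accounts for the differences in contacts was not tested.

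Of 50 other immediate early genes, 40 had a loop. As deposited, 35 of 40 had more loops with p42 in untreated cells and 3 fewer, beside 81.9% and 8.26% of all genes, and after LPS 12 had more and 24 fewer, beside 23.6% and 58.7%. In lists of equal size, 20 of 38 had more loops with p42 in untreated cells and 10 fewer, beside 41.7% and 37.7% of all genes. After LPS, 15 of 40 had more and 21 fewer, beside 33.7% and 46.8%. Ranked by the smaller of the differences without and with LPS in lists of equal size, those with the largest excess of loops with p42 were Bhlhe40, Fos, Fosl2 and Jun, followed by Id1 and Trib1, which were tied at 2 loops. Bhlhe40, a bHLH repressor, had 11 and 8 loops with p30 and 20 and 18 with p42 in lists of equal size. Those with the largest deficit were Jund, Pim1, Sik1 and Klf10, followed by Ier5l and Maff, tied at -2. Klf10, a TGF-beta-induced KLF factor, had 7 and 5 with p30 and 3 and 2 with p42.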

How the data were processed

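H3K27ac HiChIP was analysed for HPC-7 cells with p30 or p42, untreated or after LPS, from 4 lists without a header and with 26 columns each. Per the study's methods and the submitters' processing notes, the authors mapped reads to mm39 with BWA-MEM (BWA 0.7.17), recorded ligation products with pairtools and called interactions with FitHiChIP. How the 2 replicates of a group were combined was not given in the sources used here. The contact counts and the reads per bin were deposited as whole counts. The expected counts deposited by the authors are the caller's estimate per bin pair. The deposited coverage bias is a ratio to the mean of peak or other bins, the contact probability that the authors deposited is a fraction, the share of modelled contacts expected for a pair, and the deposited p-values and q-values come from the caller's binomial test. The lists hold significant pairs alone.

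The members and gene lists were chosen with earlier results of these data known. Start sites were those of GENCODE M39 on GRCm39, the assembly behind mm39. Loops were counted per start-site bin, also in lists cut to the 78591 smallest q-values. The upstream sequence of 1 member is not reported here. Coverage was called at 1.5-fold. Contacts were compared by an exact binomial test against the share of modelled contacts, with adjustment at 0.05. The test was also run on simulated counts. These held counting error only, so that run does not show how the test behaves with spread between libraries. Named were all members, partner genes in at least 2 lists, loops shared by or absent from groups of lists, and 5 other immediate early genes per direction, with ties for the last place. Alternatives changed list size, q-value, distance, bins, null and scaling. Python 3.11.15, pandas 2.3.3, numpy 2.4.6, scipy 1.17.1, statsmodels 0.14.6 and matplotlib 3.10.9 were used.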

Additional observations from a re-analysis of the deposited data

Results flagged for a closer look

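The change with LPS, or the difference between p42 and p30, had opposite signs in the groups compared for the results below. Each value is the LPS change in p42 minus that in p30, and none of these differences was tested, since each group is 1 list. For the members together, it was -0.60 for the log2 of summed loops, -0.74 for the log2 of contacts in shared loops and -0.26 for the median log2 coverage of the start-site bins. In lists of equal size the first was 0.16, with changes of -0.12 in p30 and 0.05 in p42. With expected counts as the null share the second was -0.53. Scaled to the mean of bins without a peak the third was -1.42. Scaled to the median of all start-site bins it was -0.085, and its changes, 0.09 in p30 and 0.0055 in p42, were no longer opposite in sign. In number of loops it was -4 for Egr1, -9 for Ier2, -10 for Ier3, 6 for Ier5 and -3 for Klf2. In lists of equal size it was 0 for Egr1, -2 for Ier2, -2 for Ier3, 9 for Ier5 and 0 for Klf2. There the LPS changes in p30 and p42 were no longer opposite for Ier2 (2 and 0), Ier3 (-1 and -3) and Klf2 (1 and 1), and stayed opposite for Ier5 (-5 and 4). For Egr1, whose LPS changes were both negative as deposited, they were -2 and -2. The differences of p42 from p30 in these lists, untreated and after LPS, were no longer opposite for Egr1 (-2 and -2), and were 1 and -1 for Ier2, 1 and -1 for Ier3, -7 and 2 for Ier5 and 0 and 0 for Klf2. In log2 coverage, the LPS change in p42 minus that in p30 was -0.53 for Egr1, -0.21 for Egr3, -0.42 for Ier2, -0.47 for Ier3 and -0.47 for Klf6. In log2 contacts it was -0.73 for Egr1, -0.85 for Ier2, -0.85 for Ier3, -0.22 for Ier5, -0.76 for Klf6 and -0.67 for Nr4a1. The sets of loops in both lists differ between comparisons of 1 gene. For Egr1 loops and Ier5 contacts, the opposite signs were those of p42 against p30 without and with LPS.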

How the results depend on the processing

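No paired analysis was possible because each group is 1 list that combines its replicates, and leaving out a replicate could not be run for the same reason. Of 80 alternative values, 59 stayed within the interval or count limit of the main value, 17 moved and 4 reversed. In lists of equal size, the log2 ratio of summed loops reversed from 0.46 to -0.14 for p42 against p30 in untreated cells and from -0.58 to 0.048 for LPS against untreated in p42. By construction these lists remove the excess of loops in p42 UT. The median contacts over expected moved from 5.21 to 5.94 in p42 UT. With expected counts as the null share, the log2 contacts moved from -0.29 to -0.18 for p42 against p30 after LPS and from 0.47 to 0.35 for LPS against untreated in p30. Without Ier3, an alternative added after seeing the data, the latter moved to 0.30. Median log2 coverage, scaled to other bins in place of peak bins, moved from -0.01 to 0.68 for p42 against p30 untreated, from -0.09 to -0.56 after LPS, from 0.13 to 0.66 for LPS in p30 and from -0.13 to -0.76 for LPS in p42. Scaled to the median of all start-site bins, it reversed to 0.020 for p42 against p30 after LPS and to 0.0055 for LPS in p42. At the lower of the alternative folds, the bins past the fold moved from 0 to 4 for p42 against p30 untreated, from 0 to 1 for LPS in p30 and from 0 to 1 for LPS in p42. At 2-fold they moved from 2 to 0 for p42 against p30 after LPS. Scaling the 1.5-fold calls to other bins, also added after seeing the data, gave 4, 4, 6 and 7 in the order of comparisons above, beside 72.2%, 49.2%, 47% and 81.2% of all start-site bins, and scaling to the median of all start-site bins gave 1 for p42 against p30 after LPS. The cause of the moves other than list size was not tested. Depth limits the loops of few contacts, and a loop that missed the threshold is not shown to be equal.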
